A study of Mus musculus with 8 samples.

Results

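The 6 genes described here belong to the pre-B-cell receptor or are related to it. Vpreb1, Vpreb2 and Igll1 encode its surrogate light chain, Cd79a and Cd79b its signal chains, and Vpreb3 a VpreB-like protein. They were taken by name, and each matched 1 of the 38918 gene rows of the deposited table. RNA with poly(A) tails was sequenced from BMiFLT3 (15-3), a mouse line labelled as pro-B cells of a B-cell precursor leukaemia. Cells had been infected with a retrovirus for blue fluorescent protein (the BFP group) or for Klf2, a zinc-finger transcription factor (the Klf2 group), and the column names of both groups carry BFP. The design set out to find which genes Klf2 regulates. Each group is 1 library of this 1 line, read on 4 sequencing lanes. With 1 library per group there was no test, and no p-value is given. All intervals are exact (Clopper-Pearson) 95% intervals that cover counting error of reads only. The labels name 2 library kits without assigning them, so kit and construct cannot be told apart where the kits differ.

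The pre-B-cell receptor is the checkpoint receptor of B-cell development. A new immunoglobulin mu heavy chain is carried to the cell surface by a surrogate light chain, built from a VpreB protein and lambda5, in place of a kappa or lambda light chain that has not yet been rearranged. CD79a and CD79b, the Ig-alpha and Ig-beta chains, form a dimer whose cytoplasmic tails carry the tyrosine motifs through which the receptor signals, first to SRC-family kinases and SYK and then to the adaptor BLNK. The surrogate light chain genes are normally switched off once a cell has passed this checkpoint, whereas both CD79 genes stay on in mature B cells.

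The BFP library held 30133978 exon reads (7506567 to 7588695 per lane) and the Klf2 library 30835450 (7682298 to 7741626 per lane). Over all genes, lanes of a library differed by about sampling noise and were summed; Vpreb3 in BFP was an exception, described with that gene. Klf2 itself stood at 10.1 reads per 1000000 exon reads (CPM) in BFP and 113 CPM in Klf2, an 11.1-fold difference (9.93 to 12.6). A fold is the CPM of the Klf2 library divided by that of the BFP library after TMM, a trimmed-mean scaling that moves every log2 ratio by 0.09 relative to scaling by total reads. RPKM, exon reads per kilobase of exon, scaled to 1000000 gene reads of a lane, is the level per length, as deposited, without TMM. A level in bulk RNA does not separate fewer cells that express a gene from less RNA per cell.

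All 6 genes were abundant in both libraries. Over the 10850 genes tested, those that reached 1 CPM in BFP or in Klf2, the median level was 8.33 RPKM in BFP and 7.63 RPKM in Klf2, and the lowest of the 6, Cd79b, stood at 103 and 72.6 RPKM. None of the 6 passed a 2-fold difference in either direction, which 8.12% of the 10850 genes did, and none passed 1.5-fold, which 24.1% did. With any 1 BFP lane left out and TMM recomputed, Vpreb1 passed 1.5-fold, at up to 1.51. The TMM factor of BFP then went from 1.032 to between 1.037 and 1.040, whichever BFP lane was left out. The 1.5-fold genes were 1112 higher (10.2%) and 1505 lower (13.9%) with TMM, and 771 higher and 1897 lower with scaling by total reads. The interval of the fold lay above 1 for 4 of the 6 genes (Vpreb1, Vpreb2, Igll1 and Vpreb3), as for 37.1% of all genes tested. It lay below 1 for the other 2, Cd79a and Cd79b, as for 37.3% of all genes. The median log2 difference, on the log2(CPM + 1) scale, was 0.19 over the 6 genes and -0.01 over all genes tested. Together the 6 genes took 0.295% of the exon reads in BFP and 0.325% in Klf2.

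**Figure D1:**
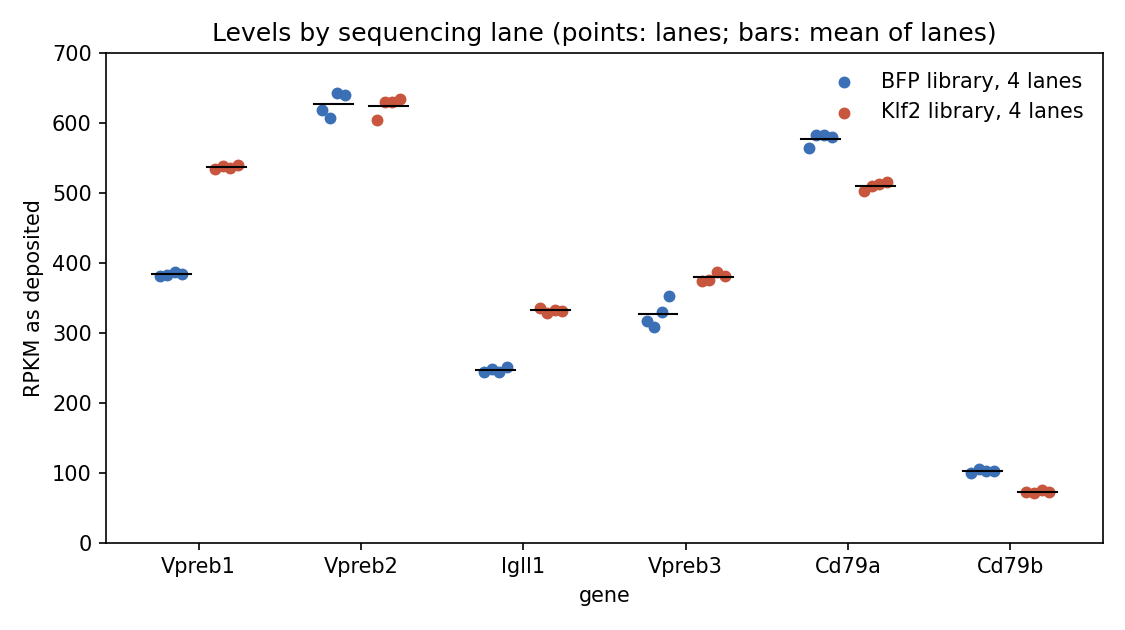
Deposited RPKM (vertical axis, linear, from 0) of the 6 genes in each of the 4 lanes of the BFP and the Klf2 library; each point is 1 lane and each horizontal bar the mean over the lanes. The lanes of Vpreb1, Igll1 and Vpreb3 lay higher in Klf2, those of Cd79a and Cd79b lower, and those of Vpreb2 overlapped.

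Vpreb1 and Vpreb2, which encode the V-domain-like protein of the surrogate light chain, are near copies of each other. Vpreb1 lies on chromosome 16, 16868402 to 16870843 (mm10, minus strand), and its deposited gene model has 6 exons that cover 1113 bases. Vpreb2 lies further along the same chromosome, 17980565 to 17981080 (plus strand), with 2 exons and 429 bases, the length of its coding sequence. Their coding sequences are both 429 bases long in the GENCODE M21 annotation. They are the same at 420 positions (97.9%), with an identical run of 196 bases, so many reads can be placed at both. The stretch below is shown because it holds 6 of the 9 differences, which are the bases that let a read be assigned to one gene. It is coding bases 268 to 387, counted from 1 at the first base of the start codon, read 5′ to 3′ on the coding strand from the GENCODE M21 transcripts. It covers chr16:16868638-16868757 in Vpreb1 and chr16:17980919-17981038 in Vpreb2, and capitals mark the differing bases.
Vpreb1: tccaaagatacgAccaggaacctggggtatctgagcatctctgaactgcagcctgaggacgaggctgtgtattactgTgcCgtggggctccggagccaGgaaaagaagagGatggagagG
Vpreb2: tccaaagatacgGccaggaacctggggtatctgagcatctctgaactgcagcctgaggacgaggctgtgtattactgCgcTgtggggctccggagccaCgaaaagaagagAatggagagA
From Vpreb1 to Vpreb2 the changes in this stretch are A280G, T345C, C348T, G366C, G378A and G387A.

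Vpreb1 was higher in the Klf2 library. The 4 BFP lanes stood at 381, 383, 387 and 384 RPKM. The 4 Klf2 lanes stood at 535, 538, 536 and 540 RPKM. Every Klf2 lane was thus above every BFP lane, and the lanes of each library lay close together. Over the 6 genes, the lanes were apart and higher in Klf2 for 3 (Vpreb1, Igll1 and Vpreb3), as for 26.5% of all genes tested. They were apart and lower for 2 (Cd79a and Cd79b), as for 37.9% of all genes. In summed reads Vpreb1 went from 15177 to 21717, or from 488 to 727 CPM, a fold of 1.49 (1.46 to 1.52). Its level ranked 101 among the genes tested in BFP and 62 in Klf2. The uniquely placed share of its exon reads was 80.7% (BFP) and 79.6% (Klf2), and on those reads alone the fold was 1.47.

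Vpreb2 differed little between the libraries. Its 4 BFP lanes stood at 619, 607, 643 and 640 RPKM. Its 4 Klf2 lanes stood at 604, 630, 630 and 634 RPKM. The 2 sets of lanes overlapped. Summed reads were 9566 in BFP and 9734 in Klf2, or 308 and 326 CPM, a fold of 1.06 (1.03 to 1.09), which turned to 0.994 with scaling by total reads. The uniquely placed share of its exon reads was 62.5% (BFP) and 59.5% (Klf2). This share was lower in Klf2 with the intervals apart, as for 2.06% of 9352 genes. These 9352 are the genes tested with at least 100 exon reads in each library, of which 1.75% were higher with intervals apart. In Vpreb1 the intervals of the unique share overlapped. Igll1, Vpreb3, Cd79a and Cd79b stood at 100% in both libraries, so the comparison says nothing about them. On uniquely placed reads the fold of Vpreb2 was 1.01 (0.976 to 1.05), an interval that includes 1.

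The balance between the copies can be read without any scaling of the libraries. Of the uniquely placed reads on either copy, Vpreb1 held 67.2% in BFP (66.5 to 67.9) and 74.9% in Klf2 (74.3 to 75.5). Per lane this share ran from 66.4% to 67.8% in BFP and from 74.5% to 75.4% in Klf2, with no overlap. On all exon reads the share went from 61.3% to 69.1%, and on reads across exon junctions from 53.3% to 65.7%. Reads of the copies summed, which do not depend on how shared reads were split, were 1.32-fold higher in Klf2 (1.30 to 1.34). Per length, Vpreb2 stood above Vpreb1 in both libraries on all exon reads, by a ratio of RPKM of 1.64 in BFP and 1.16 in Klf2. On uniquely placed reads the ratio was 1.27 in BFP and 0.870 in Klf2. These ratios rest on the deposited Vpreb1 model of 1113 bases. With 766 bases, the length of its coding transcript in GENCODE M21, they were 1.13 and 0.800 on all exon reads and 0.871 and 0.599 on uniquely placed reads. The Vpreb1 reads were still those counted over the deposited model. Which copy stood higher therefore depended on the model and the reads used, while the ratio was lower in Klf2 under each of these choices.

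Igll1 encodes lambda5, the constant-domain-like protein of the surrogate light chain, and lies beside Vpreb1 on chromosome 16, 16860671 to 16863985 (minus strand), 4417 bases away. The deposited model has 5 exons and 2164 bases. The BFP lanes stood at 244, 248, 244 and 251 RPKM. The Klf2 lanes stood at 335, 329, 332 and 332 RPKM, all above the BFP lanes. Reads went from 18990 to 26095, or from 611 to 873 CPM, a fold of 1.43 (1.40 to 1.46), and 100% of them were uniquely placed. The folds of Igll1 and Vpreb1 were close: Vpreb1 held 44.4% of the reads of the pair in BFP and 45.4% in Klf2. Reads of Vpreb1, Vpreb2 and Igll1 summed were 1.37-fold higher (1.35 to 1.39).

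The 250 bases before the RefSeq start site of these neighbours are shown because both genes were higher in Klf2. The sequences are RefSeq's, in GRCm38.p6, which has the coordinates of mm10, minus strand, 5′ to 3′. Igll1 covers chr16:16863986-16864235 and Vpreb1 chr16:16869256-16869505. Capitals mark matches, on either strand, to CACCC (read as GGGTG on the other strand), the letters of the box that KLF factors bind, and to the E-boxes CAGGTG (or CACCTG) and CAGCTG.
Igll1: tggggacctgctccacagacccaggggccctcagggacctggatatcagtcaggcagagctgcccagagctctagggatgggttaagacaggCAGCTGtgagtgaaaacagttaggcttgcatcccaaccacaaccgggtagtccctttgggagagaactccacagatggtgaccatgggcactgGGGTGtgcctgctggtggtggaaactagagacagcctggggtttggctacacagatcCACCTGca
Vpreb1: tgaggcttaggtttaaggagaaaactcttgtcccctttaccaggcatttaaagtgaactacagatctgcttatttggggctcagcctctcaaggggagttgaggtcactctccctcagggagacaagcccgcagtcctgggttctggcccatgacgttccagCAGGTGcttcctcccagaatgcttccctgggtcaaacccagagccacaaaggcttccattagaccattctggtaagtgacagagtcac
The Igll1 window held 1 match to CACCC, 1 to CAGGTG and 1 to CAGCTG, and the Vpreb1 window 1 match to CAGGTG and none to the other 2. No 2 marked matches shared a base. CACCC was found in 51.3% of the 27025 promoter windows of this length, CAGGTG in 17.1% and CAGCTG in 12.8%. Sequence was at hand for 5 of the 6 genes. Cd79a held 2 matches to CACCC, Vpreb2 held 3 and Vpreb3 none. The windows are not alike in what they cover: GENCODE M21 starts the Vpreb2 transcript at 17980428, inside the Vpreb2 window, and its 3 matches lie after that start, as does 1 of the 2 Cd79a matches after the Cd79a start at 24897381. E-box letters were not limited to Igll1 and Vpreb1: Vpreb2 held 1 match to CAGGTG and 1 to CAGCTG, and Cd79a 1 to CAGGTG. Vpreb3 held no match to either. The box of the factor EBF, CCCNNGGG, was found once in Igll1, in none of the other 4, and in 11.7% of all windows. GGGAA, the core letters bound by Ikaros, was found in Vpreb1 (1 match), Vpreb2 (2), Vpreb3 (2) and Cd79a (1) and in 55.9% of all windows. The Vpreb1 and Vpreb2 windows shared an aligned stretch of 103 bases, 102 of them the same, at positions 145 to 247 of the Vpreb1 window and 1 to 103 of the Vpreb2 window. A match of letters is a description and not a bound site.

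Vpreb3 encodes a VpreB-like protein that associates with mu heavy chains inside the cell and is not a part of the surface surrogate light chain. It lies on chromosome 10, 75943057 to 75949657 (plus strand), with 4 exons and 859 bases. Its BFP lanes stood at 317, 308, 329 and 353 RPKM. The Klf2 lanes stood at 374, 375, 388 and 381 RPKM, above all BFP lanes. The BFP lanes differed by more than sampling noise for this gene, with a chi-square of 8.73 per degree of freedom over the lanes, against 0.765 in Klf2. Reads went from 9977 to 11842, or from 321 to 396 CPM, a fold of 1.24 (1.20 to 1.27), all uniquely placed. Without BFP lane 4 the fold was 1.28, outside that interval, which covers counting error only. Its coding sequence is distant from that of Vpreb1, with the same base at 46.1% of aligned columns, gaps included.

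Cd79a and Cd79b, the signal chains, were lower in Klf2, by unequal amounts. Cd79a lies on chromosome 7, 24897381 to 24902197 (plus strand), with 5 exons and 1457 bases. Its BFP lanes stood at 564, 583, 583 and 580 RPKM. Its Klf2 lanes stood at 502, 510, 513 and 515 RPKM, all below the BFP lanes. Its reads numbered 29905 in BFP and 26987 in Klf2, or 962 and 903 CPM. Its fold of 0.939 (0.924 to 0.955) was small beside that of its partner.

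Cd79b lies on chromosome 11, 106311341 to 106314762 (minus strand), with 8 exons and 1431 bases. The BFP lanes stood at 100.2, 105, 102 and 103 RPKM. The Klf2 lanes stood at 72.9, 70.6, 74.7 and 72.3 RPKM, again with no overlap. Reads went from 5215 to 3776, or from 168 to 126 CPM, a fold of 0.753 (0.722 to 0.786), the furthest below 1 of the 6. Its level rank went from 408 to 714 among the genes tested. All exon reads of both CD79 genes were uniquely placed.

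The proteins of the CD79 dimer pair 1 to 1, but their RNAs did not stand at equal levels. Per length, Cd79a was 5.63 times Cd79b in BFP and 7.02 times in Klf2. Without scaling, Cd79a held 85.2% of the reads of the pair in BFP (84.8 to 85.5) and 87.7% in Klf2 (87.4 to 88.1). Reads of the pair summed had a fold of 0.911 (0.898 to 0.926). Set against the surrogate light chain, the shift was larger: Vpreb1, Vpreb2 and Igll1 held 55.5% of the reads of these 5 genes in BFP and 65.2% in Klf2. The same share was 51.5% and 61.5% on uniquely placed reads, and 31.5% and 44.0% on junction reads. Between Igll1 and Cd79a alone, the share of Igll1 went from 38.8% to 49.2%. These are shares of reads, which also depend on gene length, so only their change between the libraries compares the genes. The authors' deposited table gives signed folds of mean RPKM of 1.4 for Vpreb1, -1.004 for Vpreb2, 1.34 for Igll1, 1.16 for Vpreb3, -1.13 for Cd79a and -1.41 for Cd79b, where a minus sign means lower in Klf2.

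**Figure D2:**
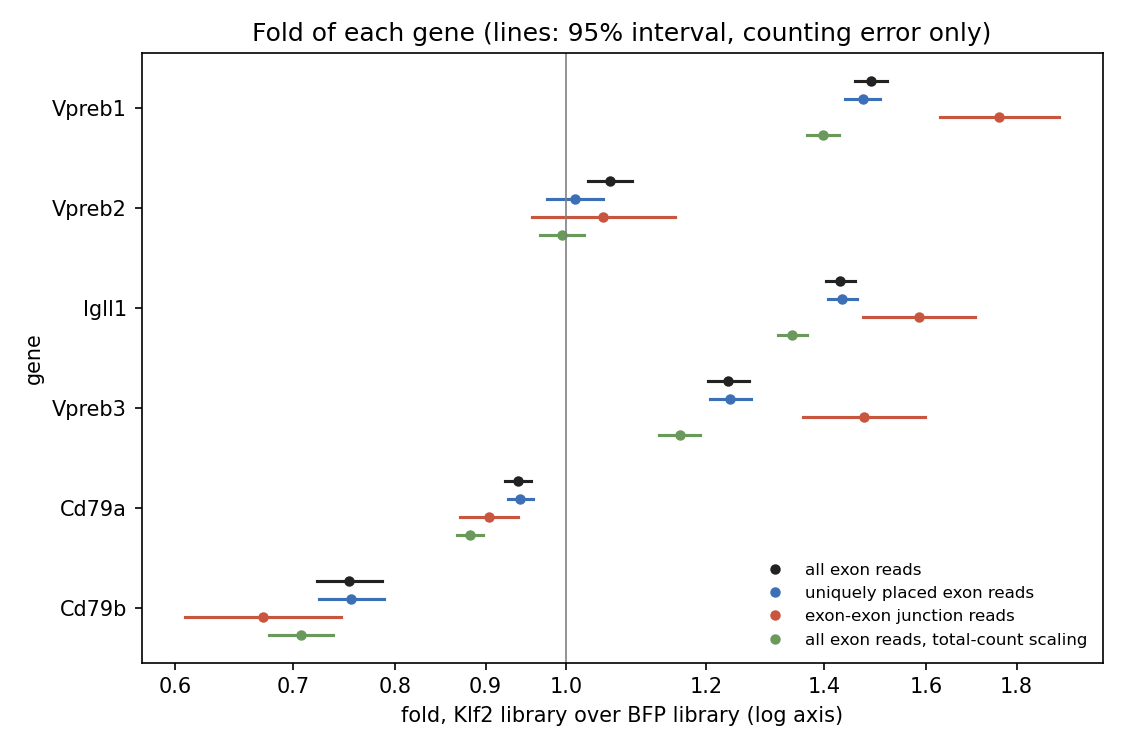
Fold of each of the 6 genes, Klf2 library over BFP library (log axis), by the reads and scaling used; lines on points are 95% intervals of counting error where reads allow one. Vpreb1, Igll1 and Vpreb3 stayed above 1 and Cd79a and Cd79b below 1 in every setting drawn, and Vpreb2 lay near 1 on either side.

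The order of the 6 levels depended on the gene model. By the deposited models the order in BFP was Vpreb2 (627 RPKM), Cd79a (577), Vpreb1 (384), Vpreb3 (327), Igll1 (247) and Cd79b (103). In Klf2 it was Vpreb2 (625 RPKM), Vpreb1 (537), Cd79a (510), Vpreb3 (379), Igll1 (332) and Cd79b (72.6). The lanes of neighbouring genes in these orders did not overlap, in either library. The deposited models of Vpreb1 and Igll1 are longer than their coding transcripts, and GENCODE M21 lists transcripts with a retained intron for both. With the length of the coding transcript, 870 bases for Igll1 and 766 for Vpreb1, Igll1 stood at 614 RPKM in BFP and 826 in Klf2, and Vpreb1 at 557 and 780. Vpreb3 on 625 bases stood at 449 and 522. For Igll1, Vpreb1 and Vpreb3 the reads were still those counted over the longer deposited models, so these levels can be too high. Vpreb2 could not be treated alike: its coding transcript has 759 bases in GENCODE M21, but its reads were counted over the 429 bases of the deposited model only. Junction reads per junction of the coding transcript gave another order. In BFP they were 1459.5 for Cd79a, 1064 for Vpreb3, 1022 for Vpreb1, 895 for Vpreb2, 606.5 for Igll1 and 192 for Cd79b. In Klf2 they were 1761 for Vpreb1, 1537 for Vpreb3, 1293 for Cd79a, 941.5 for Igll1, 920 for Vpreb2 and 127 for Cd79b. Cd79b was lowest by each measure, and the order of the others is uncertain. The coding length was chosen after the data were seen, and it leaves every fold as it was.

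**Figure D3:**
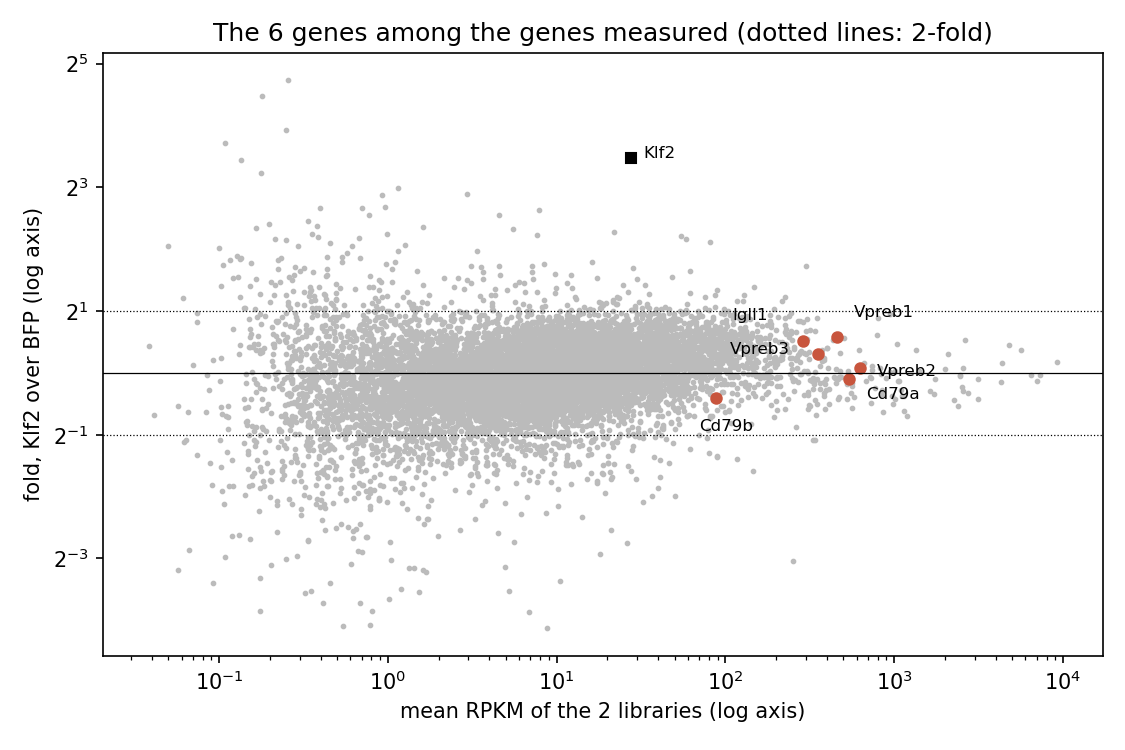
Fold (vertical axis, log scale) against mean RPKM of both libraries (horizontal axis, log scale) of the genes tested that had reads in both, with the 6 genes and Klf2 marked. The 6 genes lie at the abundant end and inside the 2-fold lines, and Klf2 at 11.1-fold lies far above them.

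The shares of reads that cross a splice junction or an exon edge also differed between the libraries in Vpreb1, Igll1 and Vpreb3. The share of exon reads on a junction was higher in Klf2, with intervals apart, for 3 of the 6 genes (Vpreb1, Igll1 and Vpreb3), as for 2.88% of those 9352 genes. It was lower with intervals apart for none of the 6, and for 2.30% of the 9352. In Vpreb1 it went from 6.73% (6.34 to 7.14) to 8.11% (7.75 to 8.48). In Vpreb3 it went from 10.7% (10.1 to 11.3) to 13.0% (12.4 to 13.6). Igll1 went from 6.39% (6.04 to 6.74) to 7.22% (6.90 to 7.54). Vpreb2 stood at 9.36% and 9.45%, Cd79a at 19.5% and 19.2% and Cd79b at 18.4% and 16.8%, with overlapping intervals. Over all genes together it was 21.9% and 22.4%. On uniquely placed reads the Vpreb1 share went from 8.27% to 10.1%, and the junction share was again higher for 3 of the 6 genes (2.89% of 9011 genes) and lower for none (2.05%).

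Intron-exon reads, those that run across an exon edge into an intron, were taken as a share of intron-exon and junction reads together. More junction reads lower this share, so it is not a readout independent of the junction share. It was lower in Klf2 with intervals apart for 3 of the 6 genes, as for 5.10% of 6511 genes, and higher for none, as for 1.15%. These 3 were again Vpreb1, Vpreb3 and Igll1. Vpreb1 had 402 intron-exon reads of 1424 in BFP (28.2%, 25.9 to 30.6) and 311 of 2072 in Klf2 (15.0%, 13.5 to 16.6). Vpreb3 went from 212 of 1276 (16.6%, 14.6 to 18.8) to 224 of 1761 (12.7%, 11.2 to 14.4). Igll1 went from 125 of 1338 (9.34%, 7.84 to 11.0) to 131 of 2014 (6.50%, 5.47 to 7.67). The number of intron-exon reads was thus lower in Klf2 for Vpreb1 but not for Vpreb3 or Igll1. Vpreb2 stood at 2.61% and 1.29%, Cd79a at 1.70% and 1.07%, Cd79b at 0.620% and 1.25%, and all genes together at 3.70% and 3.24%. In both libraries the intron-exon share of Vpreb1, Vpreb3 and Igll1 stood above that of the CD79 genes. GENCODE M21 lists transcripts with a retained intron for Vpreb1 and Igll1. The deposited Igll1 model has 2164 bases, close to the 2161 of its retained-intron transcript and far above the 870 of its coding transcript. The Vpreb1 model has 1113 bases, against 766 in its coding transcript. By these lengths the models extend beyond the coding exons, and reads in a retained intron that a model holds count as exon reads. Their part in these shares was not tested. Reads inside the gene but outside its exons were a lower share in Klf2, with intervals apart, for 2 of the 6 genes, as for 15.3% of 9819 genes, and a higher share for none, as for 14.2%. The 2 were Vpreb3 (11.1% to 8.83%) and Igll1 (7.27% to 5.60%).

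**Figure D4:**
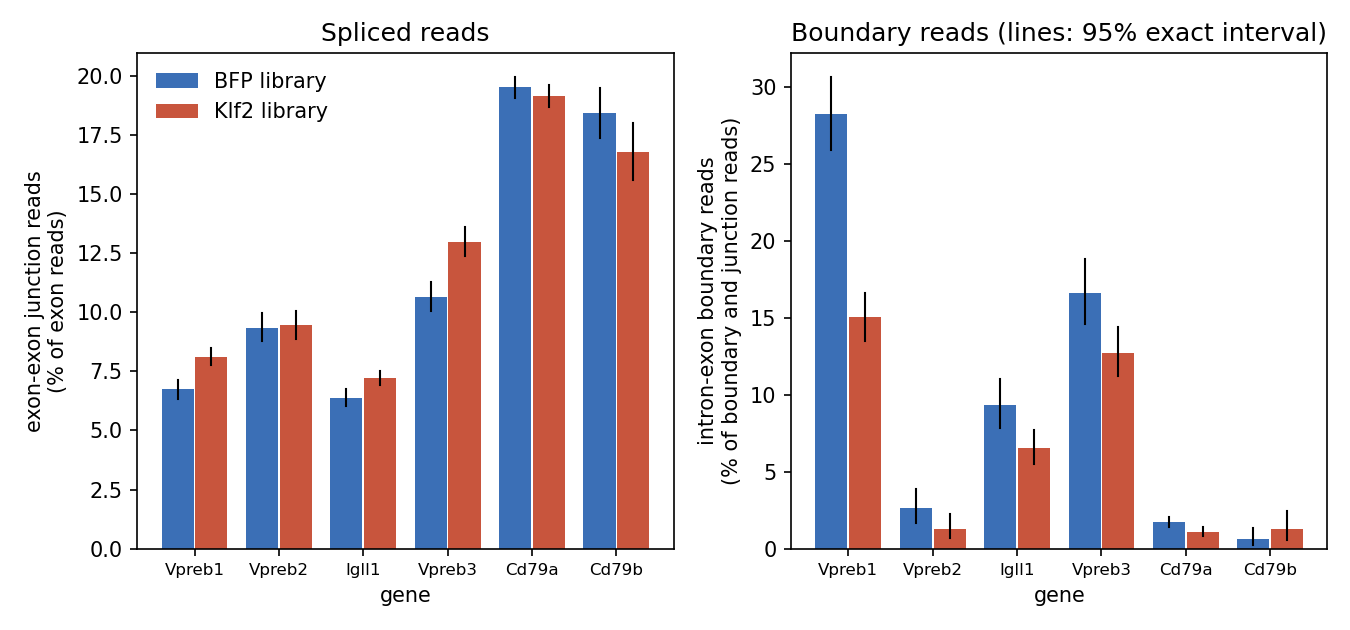
Share of exon reads on a splice junction and share of intron-exon reads among intron-exon and junction reads (vertical axes, percent) for the 6 genes in the BFP and Klf2 libraries; lines are 95% intervals of counting error. The junction share was higher and the intron-exon share lower in Klf2 for Vpreb1, Igll1 and Vpreb3.

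The folds based on junction reads alone, which come from spliced RNA, were further from 1 than those on exon reads for 5 of the 6 genes. Vpreb1 stood at 1.76 (1.63 to 1.90) and Igll1 at 1.58 (1.47 to 1.70) on junction reads. Vpreb3 stood at 1.47, Cd79a at 0.904 and Cd79b at 0.673. Vpreb2 was the exception at 1.05.

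Of 6 listed constant regions of the heavy and light chains, 3 were found, Ighm, Igkc and Iglc2, and these were lower in Klf2. Ighm, the constant region of the mu heavy chain that the surrogate light chain pairs with, went from 4779 to 4100 CPM, a fold of 0.858 (0.851 to 0.864). Igkc, the kappa constant region, had a fold of 0.708 (0.677 to 0.740), and Iglc2, a lambda constant region, 0.796 (0.776 to 0.817). All 3 had an interval below 1, as 37.3% of all genes tested had. This is the direction of the CD79 genes and opposite to Vpreb1 and Igll1. None passed 2-fold.

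Among 33 measured genes of signalling next to the receptor, 3 passed the 2-fold rule upward and 2 downward, as 2.45% and 5.67% of all genes tested did. The interval lay above 1 for 15 and below 1 for 13, and the median log2 difference was 0.06, smaller than the 0.09 that the choice of scaling moves. Blk, a B-cell tyrosine kinase related to SRC, was 5.0-fold higher (4.23 to 5.93), and Fyn, another kinase of that family, stood at 0.364 (0.350 to 0.378). Prkcb, the protein kinase C of B-cell receptor signalling, was 2.37-fold higher (1.88 to 3.02). Lax1, an adaptor of the plasma membrane, was 6.37-fold higher (3.79 to 11.3), from 17 to 104 reads. Rasgrp3, an exchange factor for RAS, stood at 0.184 (0.144 to 0.232). At 1.5-fold, 6 of the 33 were higher and 6 lower, as 10.2% and 13.9% of all genes tested were. Higher but short of 2-fold were Plcg2 (1.75), Pik3ap1 (1.67) and Zap70 (1.55). Lower but short of 2-fold were Tec (0.504), Sos1 (0.570), Dok3 (0.599) and Bank1 (0.650). Lyn, a further kinase of the SRC family, stood at 1.05, Syk at 1.01 and Btk at 0.990, and Blnk, the adaptor, at 0.746.

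Of 23 measured transcription factors that act on these genes or at this stage, 3 passed the 2-fold rule upward, Klf2 included, and 2 downward. Spib, an ETS factor of B cells, was 2.99-fold higher (2.73 to 3.28), and Id3, an inhibitor of E proteins, 2.56-fold higher (2.13 to 3.10). Id2, a related inhibitor, stood at 0.311 (0.279 to 0.346), and Bcl6, a repressor induced at the pre-B stage, at 0.282 (0.161 to 0.474), from 70 to 19 reads. At 1.5-fold, 4 of the 23 were higher and 3 lower, as 10.2% and 13.9% of all genes tested were. Those short of 2-fold were Ikzf3 (1.87, 1.77 to 1.97) and Irf4 (0.501, 0.483 to 0.519). Tcf3, which encodes the E proteins E12 and E47, stood at 0.992 (0.973 to 1.01), and Pax5, a factor of B-cell identity, at 0.873 (0.840 to 0.908). Ebf1, also on this list, was not analysed here. The interval lay above 1 for 8 of the 23 and below 1 for 11, with a median log2 difference of -0.03.

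The label of pro-B cells was set against marker genes. Of 16 pro-B markers, 11 were measured, none past 2-fold. Erg (1.68), Spn (1.27), Cd93 (0.614) and Sox4 (0.848) had the largest differences among them. Dntt, Rag1, Rag2, Kit and Cd34 were below 1 CPM in both libraries, so markers that define early pro-B cells were at or near the floor while Vpreb1, Igll1 and Cd79a were abundant. Of the later B-cell markers, 6 of 11 were measured, with the interval above 1 for 2 and below 1 for 4, and 2 were at least 2-fold lower. Sdc1 was higher (1.68, 1.496 to 1.886), as was Cd22 (1.30, 1.06 to 1.58). Cd2 was lower (0.917, 0.851 to 0.987), at 49.4 CPM in BFP and 45.3 CPM in Klf2. Il2ra was also lower (0.680, 0.621 to 0.743), at 39.6 CPM in BFP and 26.9 CPM in Klf2. The lower ones past 2-fold were Cd74, the invariant chain of antigen presentation (0.148, 0.132 to 0.166), and Prdm1 (33 against 3 reads, 0.0946, 0.0186 to 0.302). Ms4a1, which encodes CD20, had no reads in either library, which allows up to 3 reads.

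Markers of other cell types were mostly below 1 CPM, with exceptions. The summed level of 12 T-cell markers was 113 CPM in BFP and 77.2 in Klf2, mostly Cd28 (105 and 60.9), with 3 measured and Cd3e at 0. Lat, an adaptor among those 3, was 2.40-fold higher (1.91 to 3.03). The sums were 64.2 and 35.0 CPM for 12 myeloid markers (3 measured), 90.1 and 44.3 for 10 erythroid and megakaryocyte markers (2 measured), and 46.2 and 58.9 for 9 stromal and endothelial markers (1 measured). Hbb-bt, a beta-globin gene, made up most of the erythroid sum, at 107 RPKM in BFP and 48.3 RPKM in Klf2, a fold of 0.480 (0.449 to 0.514), with 22.1% of its BFP reads uniquely placed. The part of these markers in the results was not tested. The 6 tyrosine-motif chains of other immune receptors, relatives of CD79a and CD79b by motif, had summed levels of 5.53 CPM (BFP) and 3.01 CPM (Klf2). Of these, 2 were measured, and Tyrobp was at least 2-fold lower (0.195, 0.116 to 0.313).

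Genes within 100 kb of the 6 were set beside them. Near Vpreb1 and Igll1, Ppm1f, a phosphatase gene, had a fold of 1.47 (1.40 to 1.54) and Top3b, a topoisomerase gene, 1.27. The deposited Vpreb1 model overlaps Top3b, and reads in that overlap were not separated by strand as far as the sources used here say. Spag6, with few reads, stood at 0.927 (0.594 to 1.44). Both well-covered neighbours at this locus had an interval above 1, as 37.1% of all genes tested had.

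Around Vpreb2, Vpreb3 and Cd79b the neighbours had intervals on both sides of 1, whereas around Cd79a none lay above 1. Over all genes tested, the interval lay above 1 for 37.1% and below 1 for 37.3%. Around Vpreb2, 1 of 5 measured neighbours had an interval above 1 and 1 below, with folds from 0.802 (Slc25a1) to 1.26 (Dgcr2). Vpreb3 had 8 measured neighbours, 1 above and 4 below, from 0.426 (Gm867) to 1.08 (Zfp280b). The 4 near Cd79a included none above and 3 below, the side of Cd79a itself: Arhgef1 (0.900), Rps19 (0.892) and Rabac1 (0.452). Of the 9 near Cd79b, 5 lay above and 3 below, from 0.160 (Scn4a) to 1.59 (Ftsj3). On one side of Cd79b lay Smarcd2 (1.54) and Psmc5 (1.48), and on the other Scn4a and Ern1 (0.369).

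**Figure D5:**
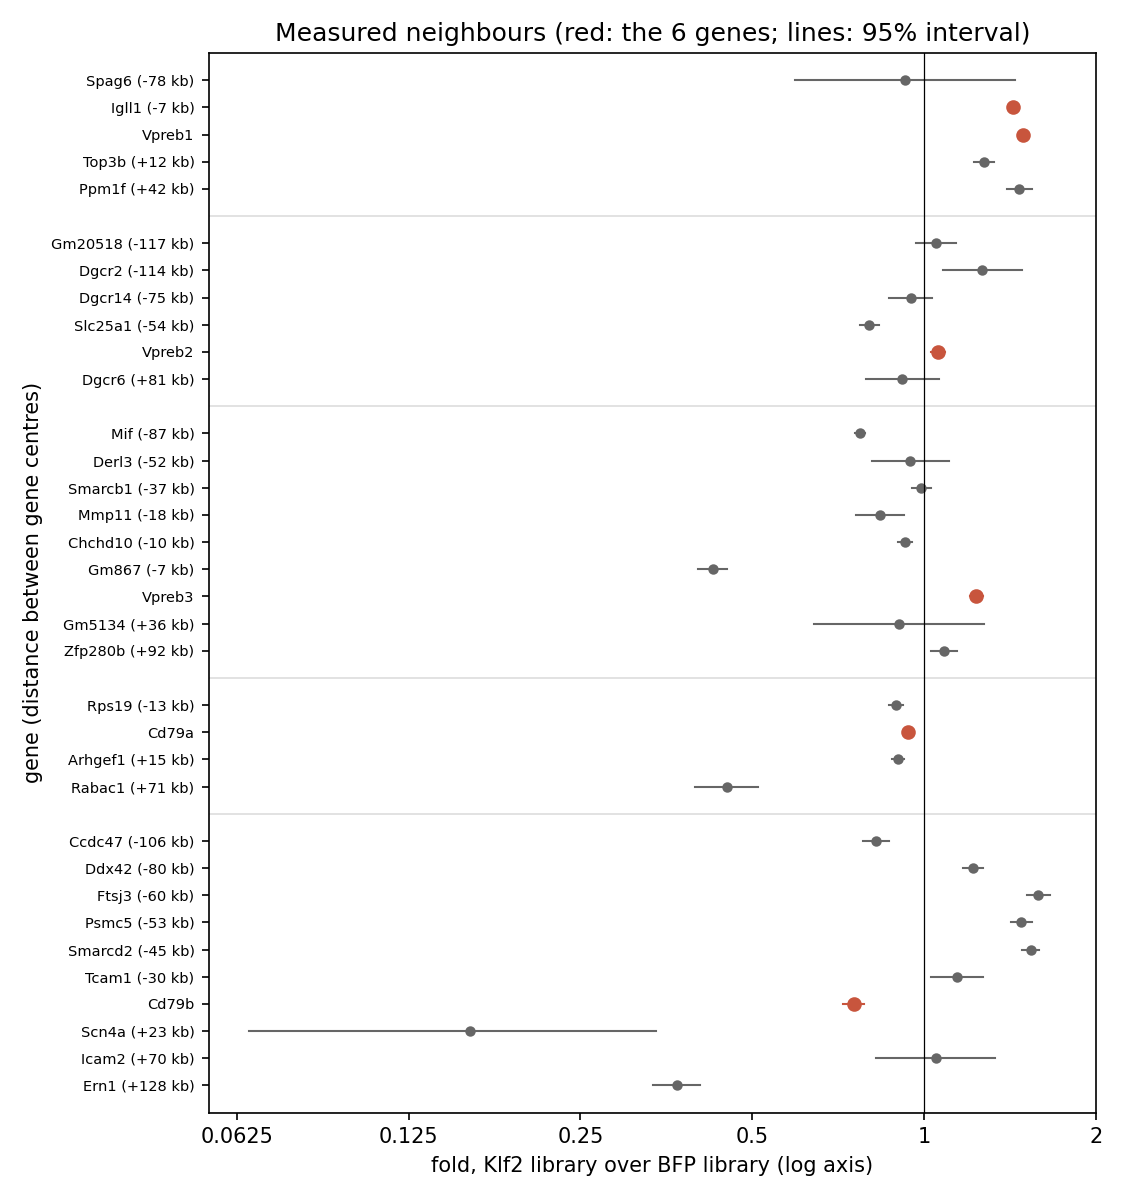
Fold with its 95% interval (horizontal log axis) of measured genes near each of the 6 (1 near Cd79a is not drawn), ordered along the chromosome, with the distance between gene centres in kb; red points are the 6 genes. Genes beside Vpreb1 and Igll1 lie mostly above 1, those drawn beside Cd79a below 1, and those beside Cd79b on both sides.

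For each of the 6, the genes nearest in log2 RPKM over both libraries were found by Euclidean distance, a likeness over only 2 points. They were Ppp1ca (0.07) and Hmga1 (0.12) for Vpreb1, Calr (0.03) and Ly6e (0.13) for Vpreb2, and Ywhae (0.09) and Tmsb4x (0.12) for Vpreb3. For Igll1 they were Hnrnpa2b1 (0.12) and Cox6b1 (0.13), for Cd79a Rps6 and Rps23 (both 0.09), and for Cd79b Gm13826 (0.03) and Vegfa (0.06). None of the 6 had another of the 6 among its nearest. Rps6, Rps23 and Gm13826 had under 3% uniquely placed reads, so their levels are uncertain.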

How the data were processed

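Per the file headers, the authors' table gives, for each gene and lane, counts of exon reads (all and uniquely placed), gene reads, reads across exon junctions and intron-exon reads, and the RPKM. It also gives the deposited median coverage and the authors' fold, a signed score. The deposited RPKM were recomputed from the counts (largest difference 0.0258). The submitters' processing notes name CASAVA 1.8.2 and mm10. For the aligner, counter, annotation and strand setting, the entry is: not given in the sources used here.

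The 4 lanes of a group were summed: chi-square per degree of freedom over lanes was 1.29 in BFP and 1.27 in Klf2 on all exon reads and 1.03 in both on uniquely placed reads (limit 1.5). Nothing says the lanes came from separate cultures. CPM used TMM factors from edgeR 4.0.16 (R 4.3.3), 1.03 for BFP and 0.969 for Klf2; DESeq2 1.42.0 gave alternative size factors. Neither tool was used for a test. A gene passed a fold rule when its ratio reached 2 (or 1.5) and its interval, from the exact binomial interval of the Klf2 share of a gene's reads, left out 1; genes tested reached 1 CPM in BFP or Klf2; log2 differences used a pseudocount of 1 CPM. Reads carry no molecular identifiers.

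The 6 genes and the gene lists were chosen with earlier results of these data known. Named genes are the 6, neighbours within 100 kb and the 2 nearest genes by level. From lists with at least 3 measured genes, they are those past 2-fold or otherwise up to 4 with the largest difference. Added after their values were seen were Lyn, Syk, Btk, Blnk, Plcg2, Pik3ap1, Zap70, Tec, Sos1, Dok3, Bank1, Tcf3, Pax5, Irf4 and Ikzf3. So were Sdc1, Cd22, Cd2, Il2ra, Cd28, Hbb-bt, Tyrobp and the markers at or near 0. Alternatives were other reads, scalings, floors, deposited RPKM and each lane left out. The values of 1 neighbour and 1 marker gene are not reported here.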

Additional observations from a re-analysis of the deposited data

Results flagged for a closer look

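The deposited RPKM of Vpreb2 over the 4 Klf2 lanes had 1 lane, at 604 RPKM, below the other lanes, which stood at 630, 630 and 634 RPKM. The gap to the nearest lane was 0.853 of the whole range, above Dixon's critical value for 4 values. Chance passes this limit in about 1 of 20 groups, and 12 groups of lanes (6 genes in 2 libraries) were examined. Without that lane the fold of Vpreb2 was 1.06.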

How the results depend on the processing

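Vpreb2 changed side: its fold, 1.06 in the main setting, was 0.994 with scaling by total exon reads and 0.996 on the deposited RPKM, and 1.01 on uniquely placed reads. The other 5 genes kept their direction in every setting tried. With scaling by total reads the folds were 1.40 for Vpreb1, 1.16 for Vpreb3, 1.34 for Igll1, 0.882 for Cd79a and 0.708 for Cd79b. On the deposited RPKM they were 1.40, 1.16, 1.34, 0.883 and 0.709 in the same order. Both settings lack the TMM shift. On junction reads they were 1.76, 1.47, 1.58, 0.904 and 0.673, and Cd79a was 0.955 on all gene reads. On the deposited median coverage, a setting chosen after seeing the data (as was the coding length), they were 1.13 for Vpreb1, 1.13 for Vpreb3 and 1.21 for Igll1. The cause of the junction and coverage differences was not tested.

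With 1 lane left out and TMM recomputed, folds ran from 1.47 to 1.51 for Vpreb1, 1.04 to 1.08 for Vpreb2, 1.21 to 1.28 for Vpreb3, 1.41 to 1.45 for Igll1, 0.925 to 0.954 for Cd79a and 0.737 to 0.769 for Cd79b. From 0 to 1 of the 6 then passed 1.5-fold: Vpreb1, without any 1 of the BFP lanes. The 1.28 of Vpreb3 is the fold without BFP lane 4. Lanes hold no variation between cultures.

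The counts over all genes depended on the floor. The 266 genes at least 2-fold higher became 121 with a floor of 10 CPM and 432 with none but 1 read. The 615 at least 2-fold lower became 277, and the 1505 at least 1.5-fold lower became 878, with the floor of 10 CPM.

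No paired analysis was possible because the lanes of a group are 1 library, and a lane number shared by the groups pairs no samples. Depth limits the genes near 1 CPM, not the 6, the least covered of which had 3776 reads in Klf2.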
